A study of Mus musculus with 6 samples.

Results

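The Zbtb genes encode proteins that join a BTB domain to zinc fingers. They were followed in cultured mouse hippocampal neurons at rest and after depolarisation with raised KCl. Members were all genes whose symbol is Zbtb followed by a number and an optional suffix, with symbols taken from the Ensembl identifiers of the deposited tables. Values were found for 41 of the 42 genes that carry such a symbol in the annotation, out of 21553 genes with values. The other, the antisense transcript Zbtb11os1, was not analysed here. One of the 41, Zbtb8os, matches by name only: it lies on the opposite strand next to Zbtb8a and encodes archease, a cofactor of the tRNA ligase complex, so the label of BTB zinc finger factor holds for the other 40.

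Neurons were taken from C57bl/6 mouse embryos at stage E16.5 and cultured for 10 days. There were 3 groups of 2 libraries each: untreated neurons, neurons in 55 mM KCl for 0.5 h, and neurons in 55 mM KCl for 3 h. No genetic change is named for any group. The libraries of a group are described as biological duplicates, with no word on whether cultures or animals were separate, so the p-values cover only how these libraries varied, which may be technical. The label of hippocampal neurons was checked against marker genes, given below. Markers of astrocytes, the oligodendrocyte lineage and progenitors, and Dcn of the fibroblast list, were found beside those of neurons.

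In this family the BTB domain at the start of the protein lets it form dimers and bind corepressors such as NCOR1 and BCOR, and the zinc fingers near the end bind DNA. Most of the studied members repress transcription. In the brain, Zbtb18 (also called RP58) is known for its role in the maturation of excitatory neurons of cortex and hippocampus, and Zbtb20 for setting the identity of hippocampal pyramidal neurons. Other members are known from lymphocytes, from binding of methylated DNA or from telomeres.

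The libraries held 98882007 to 141865913 counts, of which the Zbtb genes took 0.158% to 0.181%. Summed levels of 6 pan-neuronal markers ran from 1877 to 2039 cRPKM in untreated neurons and from 1212 to 1637 at 3 h. The largest part of this drop came from Tubb3, at 607 and 453 cRPKM in untreated neurons and 253 and 158 at 3 h. Log2 differences at 3 h were −0.09 for Map2, −0.12 for Snap25, −0.13 for Stmn2, −0.40 for Rbfox3 and −0.48 for Syt1. Here cRPKM is the authors' read count per kilobase of effective gene length, scaled to the library. Of 6 astrocyte markers the sum was 795 and 1186 cRPKM in untreated replicates 1 and 2 and 841 and 1708 at 3 h, so the second replicate was higher in both groups. The largest part of this gap came from Gfap, at 22.4 and 307 cRPKM in untreated neurons and 24.6 and 475 at 3 h. The other astrocyte markers differed by a smaller factor, with Slc1a3 for example at 390 and 398, then 442 and 635. The sum of 4 excitatory neuron markers went from 366 and 512 to 295 and 266 cRPKM, and that of 4 interneuron markers from 319 and 531 to 241 and 349. Sums of 6 oligodendrocyte lineage markers were 289 and 195 cRPKM in untreated neurons and 299.6 and 211 at 3 h, and those of 4 progenitor markers 71.8 and 59.3, then 85.7 and 70.1. Microglia markers summed to at most 1.27 cRPKM and endothelial markers to at most 0.44 in any library. Sums of 4 fibroblast markers were 41.54 and 28.35 cRPKM in untreated neurons and 43.05 and 25.85 at 3 h. Most of this was Dcn (40.87 and 23.42 at rest), while Col1a1 stood at 0.14 and 1.87 and Col1a2 at 0.04 and 2.05 in untreated replicates 1 and 2. Of all these lists 0 markers were called at 3 h by edgeR. At an unadjusted p under 0.05, 1 pan-neuronal, 1 excitatory, 1 interneuron and 1 microglia marker were lower and 1 astrocyte and 1 endothelial marker higher. DESeq2 called 1 pan-neuronal, 1 excitatory and 1 interneuron marker lower and 1 astrocyte marker higher. With replicate number as a block 2 pan-neuronal, 1 excitatory and 3 interneuron markers were lower, and 3 astrocyte, 3 progenitor (Nes, Mki67 and Top2a), 1 oligodendrocyte lineage (Olig2) and 1 endothelial marker higher. In bulk RNA, fewer cells of a type and less RNA per cell cannot be told apart, and the part of cell makeup in the changes below was not tested.

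At rest the family was led by Zbtb18. It stood at 110.8 and 112.0 cRPKM in the untreated libraries, more than any other member and 550th among the 15895 genes tested. Zbtb20 followed with 20.1 and 21.5 cRPKM. Its transcripts are very long (26901 bases for the longest in the annotation), so it drew more counts than Zbtb18 over all libraries, 362873 against 282801. Together these genes held 50.8% and 51.7% of all counts of the family in untreated neurons and 45.9% and 45.7% at 3 h. The only other members above 10 cRPKM at rest were Zbtb4, at 12.7 and 15.7, and Zbtb22, at 14.09 and 14.01 cRPKM. These levels do not overlap with those of Zbtb20, while Zbtb4 and Zbtb22 overlap each other.

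Another 35 members lay between 1 and 10 cRPKM, and the family's median of 4.34 cRPKM was under the median of 7.81 over all genes tested. Zbtb14, the fifth in order, stood at 9.31 and 9.47 cRPKM, close to Zbtb11 (9.16 and 9.58), which overlaps it. Zbtb17, known as Miz1 and a partner of Myc, had 9.09 and 9.48 cRPKM at rest. Zbtb33, known as Kaiso and a reader of methylated DNA, had 8.69 and 7.75, and Zbtb16, known as PLZF, 6.02 and 7.5. The 2 members under 1 cRPKM were Zbtb32, a gene of lymphocytes, with 0.41 in both untreated libraries, and Zbtb42, known from muscle, with 0.05 in both. Zbtb42 drew 127 counts over all 6 libraries and Zbtb9 55, and the other members drew more than either. For Zbtb9 the deposited values imply an effective length of 50 bases where its longest transcript has 3432 bases, so its level of 0.85 and 2.25 cRPKM at rest rests on very few reads. Its exons overlap Ggnbp1 and a further gene.

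**Figure D1:**
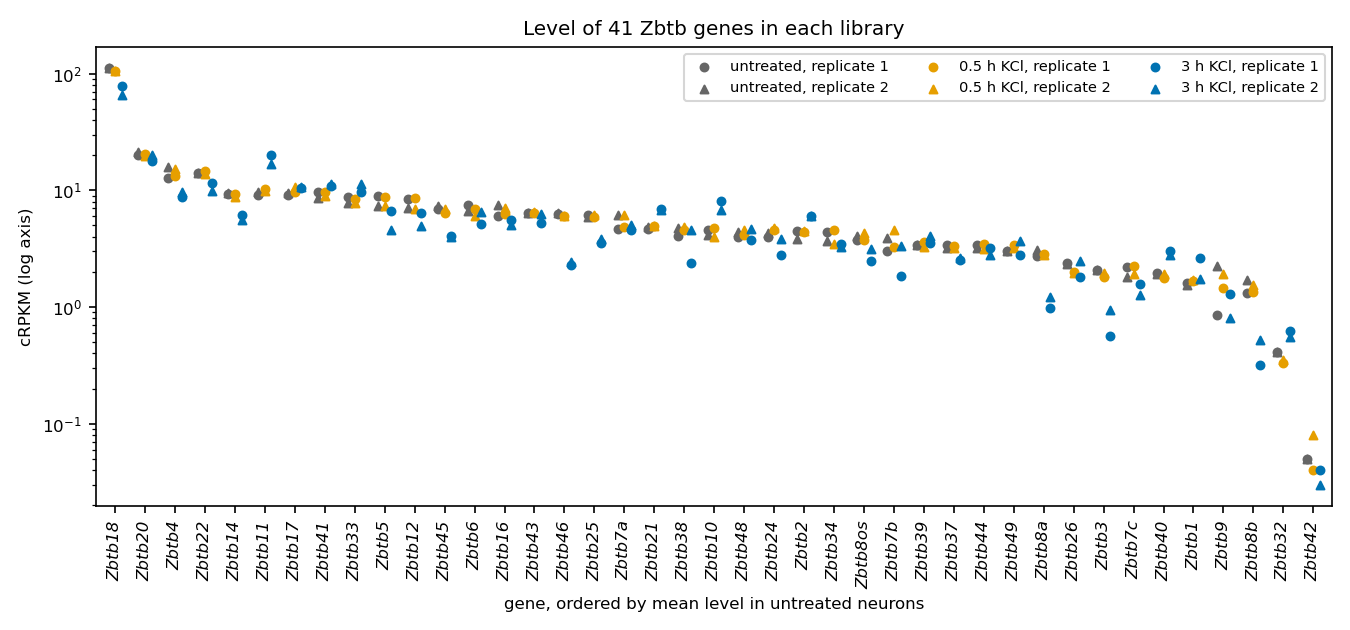
Level of the 41 Zbtb genes in each library, in cRPKM on a log axis, with genes ordered by their mean in untreated neurons; colours mark the groups and symbols the replicates. Zbtb18 lies above all others in every library and Zbtb42 below all others, and most members lie between 1 and 10 cRPKM.

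After 0.5 h of KCl no Zbtb gene was called higher or lower. Counts were compared with edgeR's quasi-likelihood test over 15895 genes, and a gene was called where its Benjamini-Hochberg adjusted p was under 0.05. Log2 changes of the 41 members lay between −0.27 (Zbtb32) and 0.24 (Zbtb42), with a median of −0.02 against 0.00 over all genes tested and a median SE of 0.14. The counts called were 0 higher and 0 lower, also at an unadjusted p under 0.05, by DESeq2 and with replicate number as a block. Over all genes 0.0377% were called higher and 0% lower (0.0818% and 0% with the block, 0.18% and 0.0103% by DESeq2, 0.629% and 0.176% at the unadjusted threshold). Among the genes called was Fos, the standard marker of activity, at 7.98 and 8.14 cRPKM in untreated neurons and 237 and 223 at 0.5 h. In cRPKM both 0.5 h libraries lay above both untreated ones for 7 members and below them for 7 (17.1% each), where 14.8% of all genes lay above and 6.38% below. Zbtb11, for example, stood at 10.4 and 9.87 cRPKM at 0.5 h, above both untreated libraries, with a log2 difference of 0.09 ± 0.13 (SE).

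At 3 h members changed in both directions. The share that rose lay near that of all genes, and the share that fell lay further above it. No test of the family as a set was made. Of 41 members, 9 fell and 5 rose, which is 21.95% and 12.2% of the members, where 6.84% and 8.71% of all genes were called lower and higher. The median log2 change was −0.27 over the 41 members and −0.25 without Zbtb8os, against −0.02 over all genes tested. In cRPKM, 22 members (53.7%) had both 3 h libraries below both untreated ones and 11 (26.8%) had both above. Over all genes these shares were 35.9% and 24.1%. With the block, 15 of the 41 members fell and 8 rose, where 18.6% of all genes were called in each direction. DESeq2 gave 10 lower and 7 higher, where 11.9% and 14.4% of all genes were called. At an unadjusted p under 0.05, 12 were lower and 9 higher, where 16.6% and 17.8% of all genes were. Scaling by library totals gave 9 and 5 members, while over all genes it gave 1115 higher and 1340 lower in place of 1384 and 1088.

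**Figure D2:**
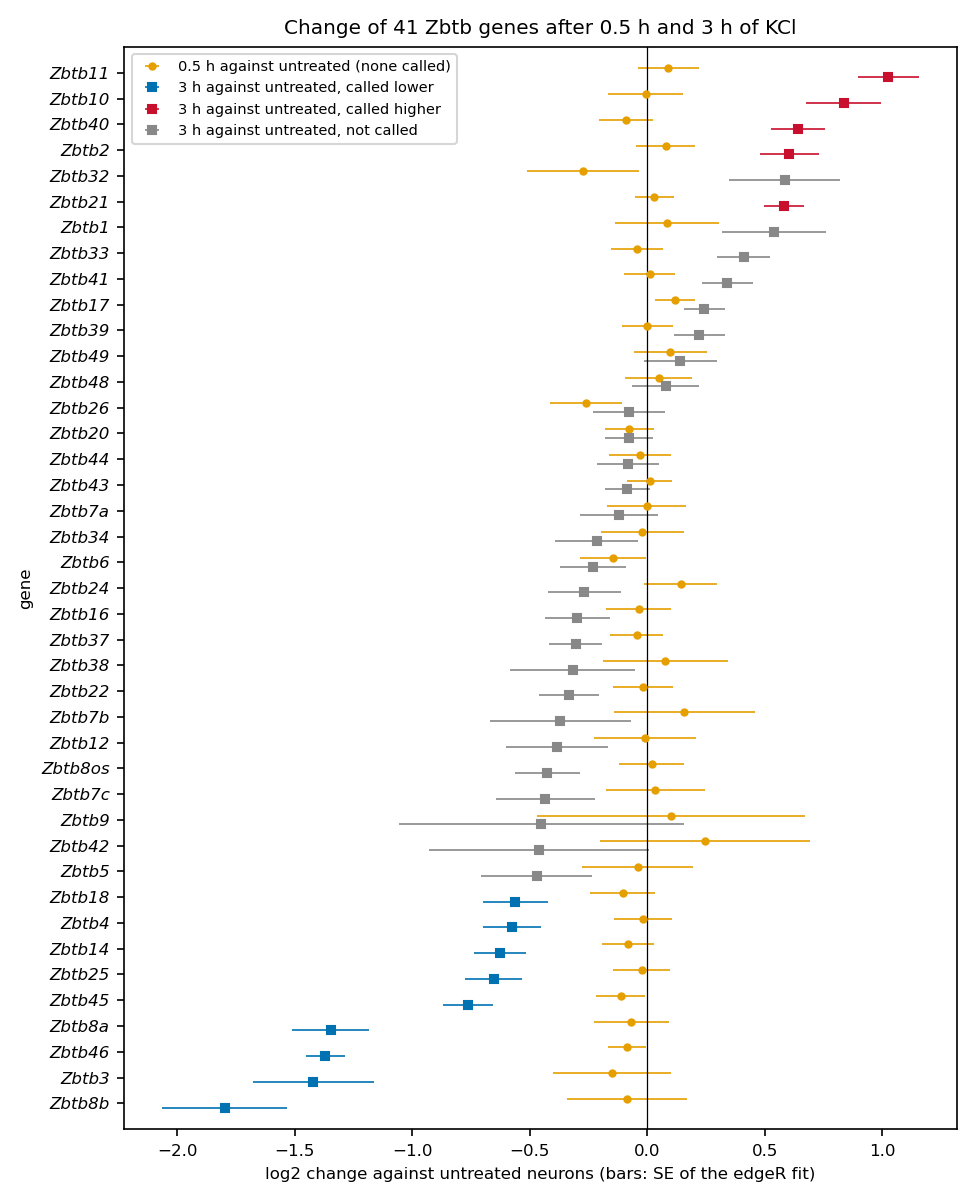
Log2 change against untreated neurons of each Zbtb gene after 0.5 h (circles) and 3 h (squares) of KCl, with the SE of the edgeR fit; colours of the squares mark members called lower, called higher or not called. The circles stay between −0.27 and 0.24, and the squares reach from −1.80 (Zbtb8b) to 1.03 (Zbtb11).

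The largest falls were those of Zbtb8b, Zbtb3, Zbtb46 and Zbtb8a, all at least 2-fold. Zbtb46 is best known as a marker of conventional dendritic cells. It stood at 6.21 and 6.42 cRPKM in untreated neurons, 6.02 and 6.05 at 0.5 h and 2.29 and 2.41 at 3 h. Both libraries of the 3 h group lay far below the other 4, which were close together. The log2 change at 3 h was −1.37 ± 0.08 (SE; 0.387 times the untreated level; adjusted p = 0.0035, edgeR), and it was called whichever of the 6 libraries was left out (adjusted p 0.0086 to 0.048).

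Zbtb8b and Zbtb8a are neighbours with Zbtb8os on chromosome 4 and encode related BTB zinc finger proteins of little known function. Zbtb8b stood at 1.33 and 1.69 cRPKM in untreated neurons, 1.34 and 1.55 at 0.5 h and 0.32 and 0.52 at 3 h, where it rested on 146 and 167 counts. Zbtb8a stood at 2.76 and 3.06, then 2.84 and 2.80, then 0.99 and 1.22. In both genes all 4 earlier libraries lay above both 3 h libraries. Their log2 changes at 3 h were −1.80 ± 0.27 (adjusted p = 0.015, edgeR) and −1.35 ± 0.16 (adjusted p = 0.010). Zbtb8os, which shares 264 exonic bases with Zbtb8a, stood at 3.75 and 4.05 cRPKM at rest, 3.75 and 4.27 at 0.5 h and 2.48 and 3.13 at 3 h. Its log2 difference was −0.43 ± 0.14 (adjusted p = 0.092; 0.020 with the replicate block; 0.038 by DESeq2). The library kit does not mark strand, so reads from the shared bases of Zbtb8a and Zbtb8os cannot be told apart.

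Zbtb3 stood at 2.06 and 2.07 cRPKM in untreated neurons, 1.81 and 1.96 at 0.5 h and 0.56 and 0.94 at 3 h. The 3 h libraries differed from each other more than the earlier ones did, and both were lower than all of those. Its log2 change was −1.42 ± 0.26 (adjusted p = 0.024, edgeR). Zbtb45, which has been linked to glial differentiation, went from 6.92 and 7.28 to 4.07 and 3.97 cRPKM (−0.76 ± 0.11, adjusted p = 0.013). Zbtb25 went from 6.12 and 5.94 to 3.56 and 3.82 (−0.65 ± 0.12, adjusted p = 0.026), and Zbtb14 from 9.31 and 9.47 to 6.14 and 5.55 (−0.63 ± 0.11, adjusted p = 0.023). At 0.5 h these 3 genes stood at 6.44 and 6.89, 5.91 and 6.13, and 9.31 and 8.69 cRPKM, above every 3 h library.

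Zbtb4 and Zbtb18, the third and the first in level at rest, also fell, with log2 changes near that of Zbtb14 (−0.63 ± 0.11). Zbtb4, which like Kaiso binds methylated CpG sites, went from 12.7 and 15.7 cRPKM to 13.1 and 15.3 at 0.5 h and 8.72 and 9.61 at 3 h (−0.58 ± 0.12, adjusted p = 0.035, edgeR). Its replicate 2 was the higher in each group, and no 3 h library reached an untreated one. Zbtb18 stood at 106 and 104 cRPKM at 0.5 h and 78.9 and 66.0 at 3 h, a log2 change from untreated neurons of −0.56 ± 0.14 (adjusted p = 0.049). It remained the highest member in every library. That call was the nearest to the threshold: the adjusted p was 0.054 with RLE scaling in place of TMM and 0.051 without a filter on low counts.

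The number of members called lower depended on which library was left out, and so did the number over all genes. Without untreated replicate 1 or untreated replicate 2, Zbtb46 was the 1 member called lower. Without 0.5 h replicate 1 or 2, Zbtb46, Zbtb8a, Zbtb8b and Zbtb45 were called lower. Without 3 h replicate 1, all of the members that fell but Zbtb4 kept the call, and Zbtb22 was called beside them. Without 3 h replicate 2, all but Zbtb4 and Zbtb18 kept it, beside a member not called with all libraries. Zbtb4 lost its call with any 1 library left out (adjusted p 0.068 to 0.21) and Zbtb18 with any but 3 h replicate 1 (0.017 to 0.23 over the 6 fits). Without untreated replicate 1 or 2 the calls over all genes also dropped, to 58 higher and 16 lower and to 34 higher and 4 lower, in fits with a lone untreated library that is assumed to vary like the other groups.

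**Figure D3:**
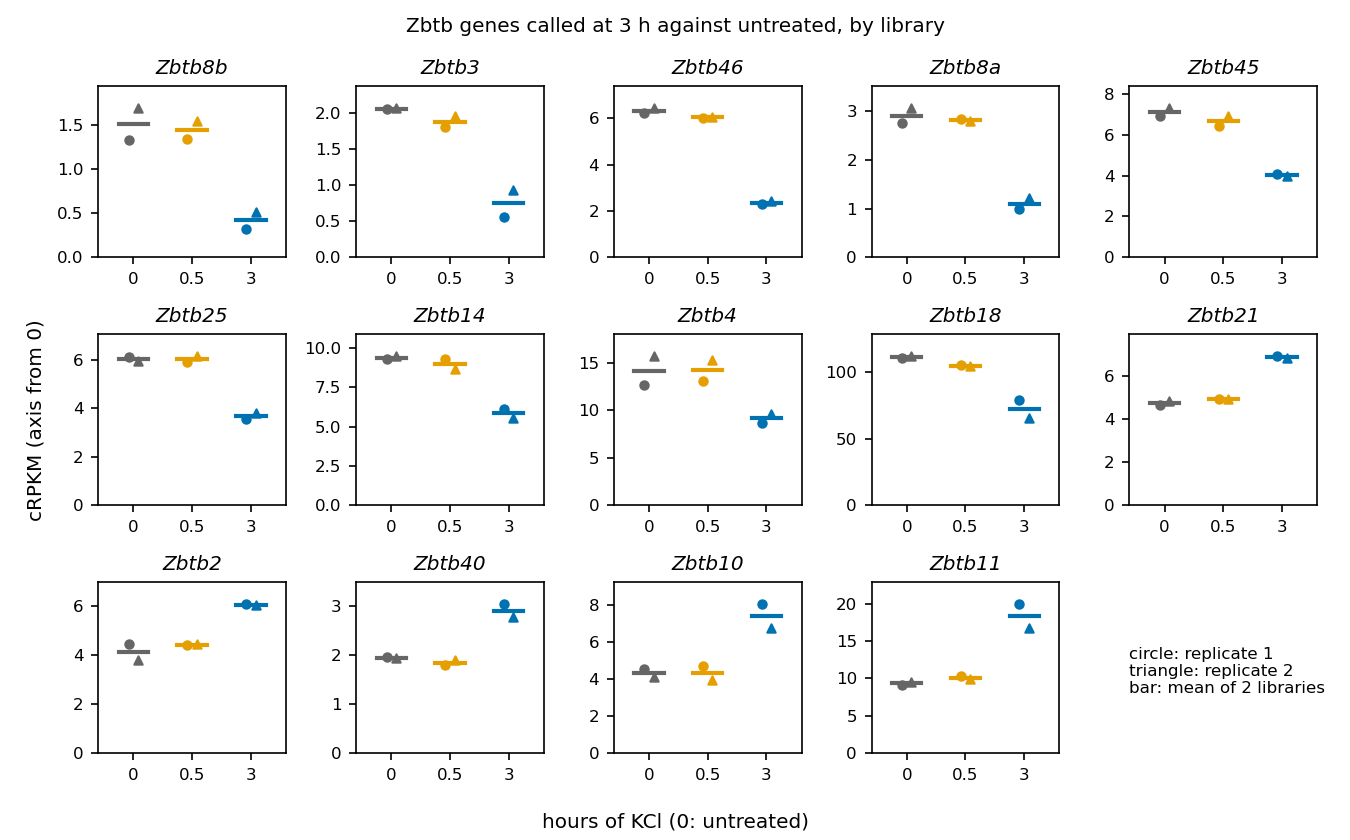
Level of the 14 Zbtb genes called at 3 h, in cRPKM on axes that start at 0, by hours of KCl; circles are replicate 1, triangles replicate 2 and bars the mean of 2 libraries. In each of the 9 members that fell and the 5 that rose, the 0.5 h libraries lie near the untreated ones and both 3 h libraries lie apart from both untreated ones.

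The 5 members that rose at 3 h were Zbtb11, Zbtb10, Zbtb40, Zbtb2 and Zbtb21. Zbtb11, in which mutations cause a neurodevelopmental disorder, changed most. It stood at 9.16 and 9.58 cRPKM in untreated neurons, 10.4 and 9.87 at 0.5 h and 19.9 and 16.7 at 3 h, a log2 change of 1.03 ± 0.13 (SE; 2.04 times the untreated level; adjusted p = 0.011, edgeR). Both 3 h libraries lay well above the other 4. Its exons share 854 bases with 3 other genes in the annotation. Of these Pcnp, on the opposite strand, is also in the tables, at 51.2 and 54.0 cRPKM at rest and 59.9 and 69.4 at 3 h (log2 difference 0.35 ± 0.09, adjusted p = 0.057), and reads from the shared bases cannot be told apart.

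Zbtb10, which binds telomeric repeats and represses Sp factors, stood at 4.55 and 4.12 cRPKM in untreated neurons, 4.75 and 3.99 at 0.5 h and 8.06 and 6.78 at 3 h (0.84 ± 0.16, adjusted p = 0.027, edgeR). Zbtb40 stood at 1.95 and 1.93, then 1.79 and 1.90, then 3.03 and 2.78 (0.64 ± 0.12, adjusted p = 0.024). Neither gene showed any overlap between the 3 h libraries and the earlier ones. Zbtb2, a repressor of the cell cycle inhibitor gene Cdkn1a, went from 4.45 and 3.80 cRPKM to 4.41 and 4.44 at 0.5 h and 6.06 and 6.02 at 3 h (0.60 ± 0.13, adjusted p = 0.033). Zbtb21 went from 4.67 and 4.87 to 4.93 and 4.96 and then to 6.92 and 6.83 (0.58 ± 0.08, adjusted p = 0.014). Its exons share 86 bases with C2cd2, which fell over the same time (−0.50 ± 0.10, adjusted p = 0.032).

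Without untreated replicate 1 or 2, none of the members that rose kept the call by edgeR, and most calls over all genes were lost too. In the other fits with a library left out, the number of calls over all genes changed as well. Without 0.5 h replicate 1 or 2, Zbtb10, Zbtb11 and Zbtb21 kept the call, and without 3 h replicate 1, Zbtb11, Zbtb21 and Zbtb40 did. Without 3 h replicate 2, Zbtb10, Zbtb11, Zbtb21 and Zbtb40 kept it, beside a member not called with all libraries. Zbtb2 lost its call with any 1 library left out (adjusted p 0.057 to 0.23). The sign of the change was kept in all of these fits for each of the 14 genes.

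Promoter sequences were looked up for the cAMP response element (CRE), the site bound by CREB, a factor known to be switched on by calcium entry in neurons. The windows come from RefSeq (build GRCm38.p6) and run from 250 bases before to 50 bases after each annotated start. They were matched by symbol for 36 of the 41 members (49 windows), and for 3 of the 5 risers. The full site TGACGTCA reads the same on both strands and holds the shorter core TGACG on each strand. It was found in the windows of Zbtb11 and Zbtb21, and neither in the riser Zbtb2 nor in any of the 9 members that fell and 24 not called that have a window. That is 5.56% of 36 members, where 2.03% of all genes with a window hold it, and 4.08% of 49 member windows, where 1.79% of all 32851 windows do. The core TGACG, searched on both strands and including the full sites, was found for 10 of the 36 members (27.8%; 23.05% of all genes) and in 20.4% of their windows (20.8% of all windows), close to the background. Member windows had a median GC content of 63.33%, where that of all windows was 52.67%. The background shares were not matched for this, and the full site was found in only 2 members. A match is a description of letters and not of binding, and no test was made.

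The stretches below show the 3 risers with a window, for the full site in 2 of them, and a pair of members that fell (Zbtb46 and Zbtb8b) for contrast. Each runs 5′ to 3′ over the 120 bases before the annotated start and the first 10 bases from it, on the gene's own strand. Capitals mark the full site and the core on either strand.
Zbtb11, chr16:55973684-55973813, plus strand: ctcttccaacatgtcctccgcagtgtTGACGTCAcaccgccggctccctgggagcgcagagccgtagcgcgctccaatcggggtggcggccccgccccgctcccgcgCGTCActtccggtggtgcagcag
Zbtb21, chr16:97962613-97962742, minus strand: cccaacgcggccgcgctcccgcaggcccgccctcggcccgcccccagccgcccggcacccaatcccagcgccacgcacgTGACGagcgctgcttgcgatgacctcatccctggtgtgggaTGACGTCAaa
Zbtb2, chr10:4388099-4388228, minus strand: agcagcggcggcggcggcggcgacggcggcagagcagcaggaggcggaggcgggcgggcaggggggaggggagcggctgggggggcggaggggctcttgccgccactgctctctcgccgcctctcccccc
Zbtb46, chr2:181424379-181424508, minus strand: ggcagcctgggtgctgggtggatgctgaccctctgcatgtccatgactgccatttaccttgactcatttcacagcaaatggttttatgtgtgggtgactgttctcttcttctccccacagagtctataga
Zbtb8b, chr4:129440809-129440938, minus strand: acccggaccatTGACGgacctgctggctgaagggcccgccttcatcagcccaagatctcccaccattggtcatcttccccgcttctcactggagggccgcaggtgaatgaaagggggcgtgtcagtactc
In Zbtb11 the full site lies well before the start, with a further core on the other strand nearer to it. In Zbtb21 the full site lies at the annotated start, with a further core before it. Zbtb8b has the core alone, and the stretches of Zbtb2 and Zbtb46 hold neither.

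The other 27 members were not called at 3 h, with log2 differences from −0.47 (Zbtb5) to 0.58 (Zbtb32). Zbtb20 was among the steadiest, at 20.1 and 21.5 cRPKM in untreated neurons, 20.3 and 19.7 at 0.5 h and 18.0 and 19.9 at 3 h (−0.08 ± 0.10, adjusted p = 0.63, edgeR). Its 3 h libraries lay just below both untreated ones, unlike those of Zbtb18, which lay far below. Zbtb16 stood at 6.29 and 7.09 cRPKM at 0.5 h and 5.53 and 5.02 at 3 h (−0.30 ± 0.14, adjusted p = 0.19). Zbtb22 stood at 14.5 and 13.7, then 11.6 and 9.83 (−0.33 ± 0.13, adjusted p = 0.13; 0.041 with the replicate block; 0.030 without 3 h replicate 1).

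Among methyl-CpG binders the values went in both directions. Zbtb4 fell, as given above. Zbtb33 (Kaiso) stood at 8.41 and 7.78 cRPKM at 0.5 h and 9.68 and 11.4 at 3 h, above both untreated libraries, with a log2 difference of 0.41 ± 0.11 (adjusted p = 0.061, edgeR; 0.034 with the block; 0.025 by DESeq2). Zbtb38, which is related to both, stood at 4.10 and 4.77 at rest and 2.38 and 4.53 at 3 h, a spread at 3 h that overlaps the untreated libraries (−0.32 ± 0.27, adjusted p = 0.44).

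Zbtb17 (Miz1) stood at 9.73 and 10.7 cRPKM at 0.5 h and 10.4 and 10.8 at 3 h (0.24 ± 0.09, adjusted p = 0.11, edgeR). Zbtb41 stood at 9.71 and 8.59 at rest and 10.96 and 11.35 at 3 h (0.34 ± 0.11, adjusted p = 0.087; 0.021 with the block; 0.049 by DESeq2). Zbtb32 stood at 0.33 and 0.35 cRPKM at 0.5 h and 0.62 and 0.55 at 3 h, above both untreated libraries, on 588 counts over all libraries (0.58 ± 0.24, adjusted p = 0.14; 0.045 with the block). With the block Zbtb33, Zbtb41 and Zbtb32 joined the 5 risers. Those that joined the falls were Zbtb8os, Zbtb22, Zbtb5 (8.92 and 7.32 cRPKM at rest, 6.62 and 4.58 at 3 h), Zbtb7c (2.19 and 1.80, then 1.57 and 1.26), Zbtb12 (8.42 and 7.0, then 6.41 and 4.92) and Zbtb37 (3.41 and 3.23, then 2.55 and 2.62). In Zbtb5, Zbtb7c and Zbtb12 replicate 1 was the higher in both groups, and no 3 h library reached an untreated one.

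Zbtb1 and Zbtb25 start on opposite strands of chromosome 12, 960 to 1056 bases apart by the RefSeq starts. Zbtb25 fell, as given above. Zbtb1, which is needed for lymphocyte development, stood at 1.60 and 1.55 cRPKM at rest, 1.67 and 1.72 at 0.5 h and 2.64 and 1.74 at 3 h (0.54 ± 0.22, adjusted p = 0.15, edgeR). Both 3 h libraries of Zbtb1 lay above the untreated ones, but replicate 2 only slightly.

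The remaining members had smaller or less even differences at 3 h. Against untreated neurons, none of them was called by edgeR, by DESeq2 or with the block. On the lower side were Zbtb42 (−0.46 ± 0.47) and Zbtb9 (−0.45 ± 0.61), both with few counts. Zbtb7b, which directs helper T cell fate, stood at 3.00 and 3.89 cRPKM at rest and 1.83 and 3.34 at 3 h (−0.37 ± 0.30), and its relative Zbtb7a at 4.64 and 6.19, then 4.59 and 5.0 (−0.12 ± 0.17). In both genes the groups overlapped. Zbtb24, mutated in an immunodeficiency syndrome with DNA hypomethylation, had a log2 difference of −0.27 ± 0.16. Those of Zbtb6, Zbtb34, Zbtb43, Zbtb44 and Zbtb26 were between −0.23 and −0.08, and those of the telomere-binding Zbtb48, of Zbtb49 and of Zbtb39 were 0.08, 0.14 and 0.22.

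Between 0.5 h and 3 h, which share their 3 h libraries with the comparison above, 8 members fell and 4 rose of 41 (19.51% and 9.756%), where 4.87% and 6.39% of all genes were called lower and higher. The falls ran from −1.71 ± 0.27 (Zbtb8b) to −0.54 ± 0.11 (Zbtb14), with adjusted p from 0.0077 to 0.045 in edgeR, and the rises from 0.55 ± 0.08 (Zbtb21) to 0.94 ± 0.13 (Zbtb11), with adjusted p from 0.017 to 0.033. Zbtb18 (−0.46 ± 0.14, adjusted p = 0.091; 0.032 with the block) and Zbtb2 (0.53 ± 0.13, adjusted p = 0.053; 0.015 with the block) did not pass. With the block 15 members fell and 8 rose (15.6% of all genes in each direction), and DESeq2 gave 10 and 7 (10.5% and 12.5%). The falls with the block took in Zbtb7b and Zbtb24 (adjusted p = 0.032 and 0.047, edgeR with the block). They left out Zbtb22 and Zbtb37, which were called with the block against untreated neurons. At an unadjusted p under 0.05, 11 were lower and 8 higher (14.9% and 15.9%). In cRPKM, both 3 h libraries lay below both 0.5 h ones for 21 members and above them for 9, where 35.4% and 21% of all genes did. Without 0.5 h replicate 1 or 2, edgeR called 0 genes in the whole table (1744 higher and 1435 lower, and 1562 higher and 1221 lower, at an unadjusted p under 0.05). Among the members 7 and 6 were higher and 8 and 8 lower at an unadjusted p under 0.05. Without untreated replicate 1 or 2, 1 member was called higher and 3 lower.

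Genes that the Zbtb proteins are known to work with were read from lists chosen with earlier results of these data known. Their counts at 3 h stand beside 8.71% of all genes called higher and 6.84% lower by edgeR, 17.8% and 16.6% at an unadjusted p under 0.05, 14.4% and 11.9% by DESeq2, and 18.6% each way with the block. Of 7 measured BTB zinc finger genes under other symbols, 1 rose and 1 fell at 3 h. Patz1 fell from 12.9 and 12.4 cRPKM to 7.22 and 6.69 (−0.81 ± 0.11, adjusted p = 0.012, edgeR), and Mynn, which encodes myoneurin, rose from 6.70 and 6.34 to 8.24 and 10.97 (0.61 ± 0.13, adjusted p = 0.038; 0.060 with library totals). The median was −0.04, against −0.02 over all genes. Patz1 lost its call without either untreated library (at most 0.088), and Mynn kept it only without 3 h replicate 1.

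Of 27 corepressors and partners of the BTB domain, 4 rose and 0 fell at 3 h by edgeR, with a median of 0.10 (8 higher and 3 lower at an unadjusted p under 0.05; 5 and 2 by DESeq2; 7 and 3 with the block). Bcor, a corepressor that binds the BTB domain of Bcl6, more than doubled, from 5.86 and 6.00 cRPKM in untreated neurons and 6.10 and 6.12 at 0.5 h to 13.0 and 13.5 at 3 h (1.22 ± 0.08, adjusted p = 0.0035). Both replicates agreed closely in each group, and the call was lost only without untreated replicate 2 (0.059). The corepressor gene Rcor1 rose by 0.73 ± 0.18 (adjusted p = 0.049), the class IIa deacetylase gene Hdac4 by 0.64 ± 0.12 (0.028) and Nacc2, which encodes a BTB protein without zinc fingers, by 0.49 ± 0.09 (0.022). Rcor1, Hdac4 and Nacc2 each lost the call without either untreated library and without either 0.5 h library (adjusted p up to 0.25, 0.14 and 0.20). Rcor1 also lost it without 3 h replicate 1, and Hdac4 without 3 h replicate 2. Ncor1, which encodes a classic corepressor, was not called (−0.04 ± 0.15, adjusted p = 0.89, edgeR).

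Of 7 measured genes in a list of Myc genes and partners of Myc, Miz1 and Kaiso, 4 rose at 3 h and 0 fell by edgeR. The median was 0.49 (5 higher and 2 lower at an unadjusted p under 0.05, by DESeq2 and with the block). Ctnnd1, which encodes the Kaiso-binding p120 catenin, rose from 24.3 and 21.8 cRPKM to 53.2 and 52.9 (1.26 ± 0.12, adjusted p = 0.0064). Myc rose from 8.97 and 9.24 to 15.6 and 22.5 (1.11 ± 0.16, adjusted p = 0.013). Mxi1, a Max-binding antagonist of Myc, rose by 0.99 ± 0.12 (0.0095) and Max by 0.35 ± 0.08 (0.039; 0.087 with library totals). The other Myc genes, Mycn (−1.06 ± 0.33, adjusted p = 0.084; 0.0026 with the block) and Mycl (−0.92 ± 0.24, 0.053; 0.0031 with the block), had lower values. Ctnnd1, Myc and Mxi1 lost their calls without untreated replicate 1 or 2 (adjusted p at most 0.068, 0.099 and 0.072), and Max kept its call only without 3 h replicate 1.

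**Figure D4:**
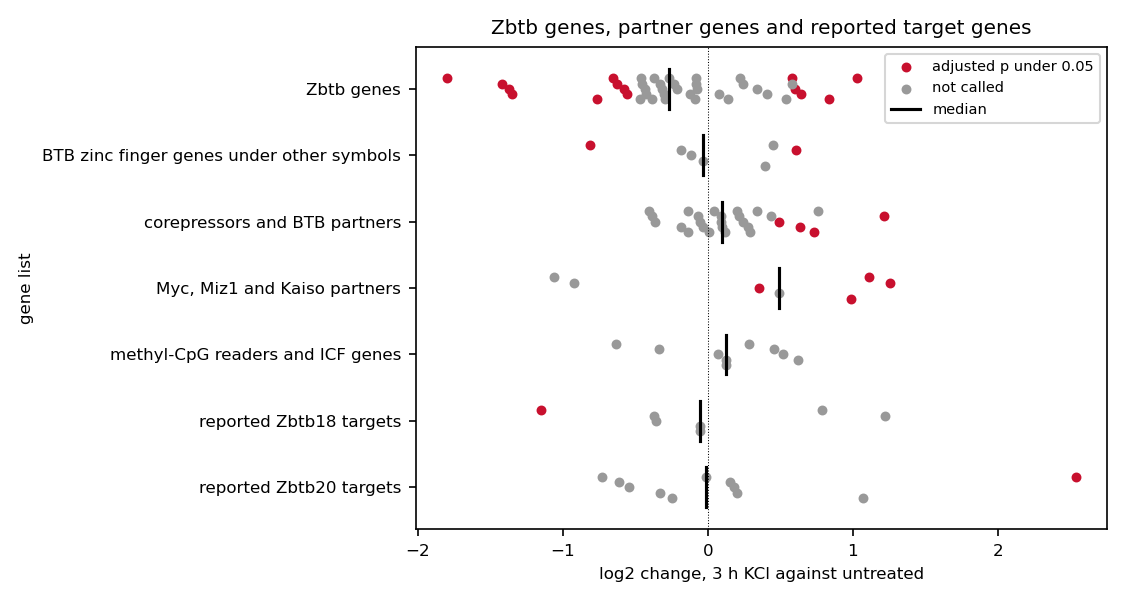
Log2 change at 3 h against untreated neurons of the Zbtb genes and of 6 lists of related genes, 1 point a gene; coloured points have an adjusted p under 0.05 in edgeR and bars mark medians. The median of the Zbtb genes (−0.27) lies to the left of 0 and that of the Myc, Miz1 and Kaiso partners (0.49) to the right.

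Of 9 methyl-CpG readers and genes of the same immunodeficiency syndrome as Zbtb24, 0 were called at 3 h by edgeR (2 higher and 1 lower at an unadjusted p under 0.05; 2 and 0 by DESeq2; 3 and 2 with the block). Of 7 genes reported as targets of Zbtb18, 1 fell and 0 rose by edgeR (1 and 1 with the block), with a median of −0.06. This was Neurod1, a proneural factor, from 10.3 and 9.63 cRPKM to 5.20 and 3.37 (−1.15 ± 0.25, adjusted p = 0.037, edgeR; kept only without 3 h replicate 1). Among the Id genes of this list Id3 had 1.22 ± 0.74 (adjusted p = 0.30; 0.0077 with the block), Id1 0.79 ± 0.71 (0.47), Id2 −0.36 ± 0.36 (0.52) and Id4 −0.37 ± 0.32 (0.46). Of 11 genes reported as targets of Zbtb20, 1 rose and 0 fell by edgeR (2 and 3 with the block; 2 and 0 at an unadjusted p under 0.05; 1 and 0 by DESeq2), with a median of −0.01. This was Rorb, a nuclear receptor gene, from 2.58 and 2.45 cRPKM to 10.2 and 18.1 (2.54 ± 0.25, adjusted p = 0.0073; 0.067 at most without an untreated library). At 0.5 h, 0 genes of these 6 lists were called by edgeR, at an unadjusted p under 0.05, by DESeq2 or with the block.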

How the data were processed

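RNA was extracted with TriReagent and sequenced from TruSeq RNA libraries, per the labels' protocols. The submitters' processing notes name mm9 and Bowtie; no source used here gives versions or the annotation. The authors deposited, per gene, an RPKM named cRPKM and a whole-number read count. For the 7690 genes above 2000 counts throughout, counts per cRPKM followed the library totals within 0.00693%. Symbols came from GENCODE M21, another build (94.9% of genes matched), used for names, neighbours, exon overlap and length.

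The test on counts used edgeR 4.0.16 (R 4.3.3), with TMM scaling, filterByExpr (minimum count 10; 15895 genes), and 1 quasi-likelihood fit over 6 libraries with group as the only term (3 residual degrees of freedom). SE is the log2 change divided by the square root of F. All 41 members passed the filter. Alternatives were DESeq2 1.42.0, RLE scaling, library totals, no filter, a replicate block and leaving out each library. Differences between replicates 1 and 2 correlated between groups across genes (r = 0.81, 0.58 and 0.61), so same-numbered libraries may be pairs; this rests on the data, not on a label. The main fit leaves pairing out, and only the block alternative uses it.

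Members, lists and motifs were chosen with earlier results of these data known. Values are given for members called in any comparison, the 5 highest and 3 lowest in level and 6 with distinct roles, for up to 4 called genes of each list, and for further members named for completeness. Protein features were not analysed here.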

Additional observations from a re-analysis of the deposited data

Results flagged for a closer look

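The effect of KCl differed between 0.5 h and 3 h for 12 Zbtb genes by the test of 3 h against 0.5 h (edgeR, adjusted p under 0.05). Given as the log2 change at 3 h minus that at 0.5 h, the effect at 3 h was lower for Zbtb8b (−1.71), Zbtb46 (−1.28), Zbtb8a (−1.28), Zbtb3 (−1.27), Zbtb45 (−0.65), Zbtb25 (−0.63), Zbtb4 (−0.56) and Zbtb14 (−0.54). It was higher for Zbtb11 (0.94), Zbtb10 (0.84), Zbtb40 (0.73) and Zbtb21 (0.55). Of these, Zbtb46, Zbtb8a, Zbtb8b and Zbtb11 kept the call in 4 of 6 fits with 1 library left out, losing it without either 0.5 h library. Zbtb4 kept it in 0 of 6 (adjusted p 0.069 to 0.25).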

How the results depend on the processing

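With the replicate block the called members at 3 h against untreated were 8 higher and 15 lower (5 and 9 without it) and at 3 h against 0.5 h 8 and 15 (4 and 8); over all genes the block gave 2963 and 2955, and 2477 and 2484 (1384 and 1088, and 1015 and 774 without it). At 0.5 h it gave 13 higher over all genes in place of 6. DESeq2 gave 35 higher and 2 lower at 0.5 h, 2259 and 1877 at 3 h, and 1921 and 1614 between the times, with 7 members higher between the times. Without a filter 13 genes were higher at 0.5 h. With 1 library left out, called members ranged from 0 to 5 higher and 1 to 9 lower at 3 h, and from 0 to 5 and 0 to 9 between the times. Over all genes these ranges were 34 to 1924 and 4 to 1815, and 0 to 1527 and 0 to 1388, and at 0.5 h 0 to 6 higher. Signs were compared only for members called in any comparison, the 5 highest, the 3 lowest and the 6 with distinct roles, and not for the further members named. Among those compared, signs turned only for log2 changes that were not called. They were near 0 except for Zbtb42 at 0.5 h (0.24 with all libraries). With library totals these were Zbtb10 (0.0135), Zbtb22 (0.0038) and Zbtb4 (0.0030) at 0.5 h. Zbtb20 between the times had 0.0119 by DESeq2, 0.0135 with RLE and 0.0085 without a filter, and −0.0273 to 0.0567 with 1 library left out. At 0.5 h, leaving out 1 library gave −0.16 to 0.13 for Zbtb10, −0.18 to 0.12 for Zbtb16, −0.0431 to 0.21 for Zbtb2, −0.0837 to 0.0441 for Zbtb22, −0.0575 to 0.0091 for Zbtb25, −0.14 to 0.0528 for Zbtb33, −0.15 to 0.13 for Zbtb4, −0.29 to 0.64 for Zbtb42, −0.24 to 0.0838 for Zbtb8b and −0.0566 to 0.0883 for Zbtb8os. Library totals moved the median of all genes from −0.03 to −0.10 between the times. The cause of these shifts was not tested. In the fits that leave 1 library out, the lower number of libraries and the missing library's own values cannot be told apart. Few counts limit Zbtb42 and Zbtb9.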
